A study of Mus musculus with 10 samples.

Results

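The osteoblast mineralization genes are 9 genes with which osteoblasts lay down and mineralize bone matrix, namely Bglap, Bglap2, Ibsp, Spp1, Alpl, Sp7, Runx2, Phospho1 and Dlx5. They were taken by symbol from a table of 35757 mouse genes, and all 9 were present and all 9 passed a minimum mean of 1 TPM (the share of a library's transcripts, corrected for transcript length). RNA was sequenced from the medial knee cartilage of 10 mice, 5 wild-type control mice and 5 Mir324-null mice, with 1 library per mouse. Mir324 is the gene of the microRNA miR-324, and the study is concerned with its role in osteoblasts and osteoclasts. None of the mice was treated. How the null allele was made, and the strain, age and sex of the mice, were not given in the sources used here. The RNA carries no check of the genotype labels here, because Mir324 itself was not analysed. Litters and batches are not given either, so p-values measure only the spread between these mice.

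Bone is built when osteoblasts secrete a matrix of type I collagen and then fill it with calcium phosphate. Runx2 commits progenitors to the lineage, Sp7 (osterix) acts after it, and Dlx5 is a homeodomain factor that drives both. Alpl (tissue-nonspecific alkaline phosphatase) removes pyrophosphate, an inhibitor of mineral, and Phospho1 releases phosphate inside matrix vesicles. Ibsp (bone sialoprotein), Spp1 (osteopontin) and osteocalcin, encoded in the mouse by Bglap and Bglap2, are secreted proteins that bind mineral. Several members are also made elsewhere: Spp1 by osteoclasts and macrophages, Alpl, Ibsp, Sp7 and Runx2 by hypertrophic chondrocytes, and Phospho1 by maturing red cells.

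The sequence of the missing microRNA is shown because it defines which members carry a possible site for it. Both mature strands are given 5′ to 3′ from RefSeq (GRCm38.p6, chromosome 11, plus strand), with the seed, bases 2 to 8, in capitals.
miR-324-5p: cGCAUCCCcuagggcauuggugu
miR-324-3p: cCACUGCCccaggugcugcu
The reverse complements of these seeds, GGGATGC and GGCAGTG, were looked for in 1 3′ UTR per member, the longest in the annotation. Only Runx2 and Phospho1, 2 of the 9 members, held a match. The stretches around them follow, with the match in capitals.
Runx2 (miR-324-5p): agggaatagagGGGATGCattagtgccta
Phospho1 (miR-324-3p): cttggaaggcaGGCAGTGcccctcgaact
The Runx2 match is followed by an adenosine (an 8mer) and lies in exon 7 of transcript ENSMUST00000113572, at chr17:44605382-44605388 of GRCm38 on the minus strand. The Phospho1 match is a 7mer in exon 3 of Phospho1, at chr11:95831553-95831559 on the plus strand. Each seed was thus matched in 1 of the 9 members. Of 12615 protein-coding genes tested that have an annotated 3′ UTR, 9.39% held GGGATGC and 17.4% held GGCAGTG. The share of genes holding either was not computed. A match is a description of letters and not a measured site.

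All 9 members had a lower mean in Mir324-null than in wild-type cartilage, by between 0.19 and 1.10 on the log2(TPM + 1) scale. Osteocalcin and osteopontin differed most, and Runx2 and Phospho1 least. No member passed the test after correction over all genes, so each difference is given as a value and not as an established change. By limma's moderated test with Benjamini-Hochberg adjustment over 13846 genes, 0 of 9 members had an adjusted p under 0.05, as did 0% of all genes tested (adjusted p 0.278 at the lowest). Counting by an unadjusted limma p under 0.05, 6 of the 9 members were lower (Bglap, Bglap2, Ibsp, Spp1, Alpl and Dlx5), beside 7.3% of all genes tested, and 0 were higher, beside 4.28%. By the exact permutation test, 3 of the 9 (Bglap, Bglap2 and Spp1) had an unadjusted p under 0.05. The median log2 difference was -0.62 over the 9 members and -0.045 over all genes tested, and 60.0% of all genes tested had an estimate below 0. In 0 of 9 members did the 5 null mice lie entirely below the 5 wild-type mice, beside 1.06% of all genes tested.

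The count of 6 depended on single mice. It was 3 when wild-type replicate 1, 2 or 4 was left out, and also when Mir324-null replicate 1, 4 or 5 was. Bglap, Bglap2 and Spp1 were the 3 each time. The share of calls that were lower depended on the scaling of the libraries. Of all genes tested with TPM as deposited, 1011 were lower and 592 higher at that threshold, but 888 and 875 when libraries were scaled by median ratios, 929 and 884 when their quantiles were equalized, and 581 and 1215 when they were rescaled without the haemoglobin genes. The members lower at that threshold numbered 4, 4 and 3 under these scalings, beside 6.41%, 6.71% and 4.2% of all genes, and all 9 estimates stayed below 0. A tissue library of this kind cannot tell fewer cells of a type from less RNA per cell.

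**Figure D1:**
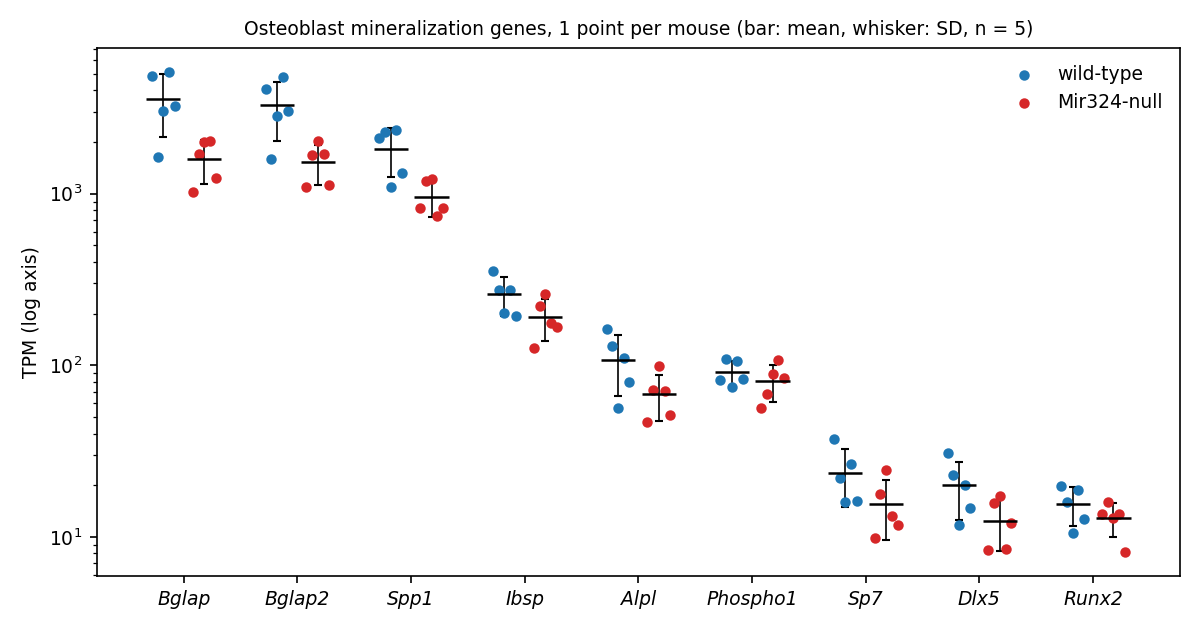
TPM on a log axis for the 9 members, ordered by level, with 1 point per mouse (blue wild-type, red Mir324-null), a bar at the mean and a whisker of 1 SD (n = 5). The null points sit lower for osteocalcin and Spp1 and overlap the wild-type points in every gene.

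The labels name the tissue as articular cartilage and the cell type as chondrocyte, but bone and marrow genes were abundant. The cartilage collagen Col2a1 had a mean of 91.4 ± 31.9 TPM in the wild-type and of 59.0 ± 24.1 in the null libraries, whereas the bone collagen Col1a1 had means of 1522 ± 401 and 829 ± 339 TPM (SD, n = 5). Of 9 chondrocyte markers, Matn3 and Col9a1 were under 1 TPM on average. The others besides Col2a1 had wild-type means of 235 (Comp), 146 (Acan), 116 (Col11a2), 22.0 (Hapln1), 10.1 (Sox9) and 6.99 TPM (Cnmd). Prg4, listed with the fibroblast and synovial lining genes, averaged 2902 TPM in the wild-type and 1737 in the null libraries. The other genes of that list were far lower, with wild-type means of 37.2 (Pi16), 17.4 (Thy1), 11.2 (Pdgfra), 6.87 (Dpt) and 4.80 TPM (Clec3b). Haemoglobin genes took up 11.2% to 26.2% of the TPM of a library. On the first principal component, with 26.7% of the variance, wild-type replicate 1 lay apart at -54.8 while the other 9 lay between -12.2 and 30.2. The 9 members together held 0.608% to 1.29% of a wild-type library and 0.320% to 0.574% of a null library. Most of this was osteocalcin, with Bglap and Bglap2 averaging 6849 of 9198 TPM in wild-type and 3121 of 4459 TPM in null mice. Each member taken singly overlapped between the genotypes.

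The members covered a wide range of TPM. Averaged over the 10 mice, the order from highest to lowest was Bglap, Bglap2, Spp1, Ibsp, Alpl, Phospho1, Sp7, Dlx5 and Runx2. Secreted matrix proteins stood at the top, the phosphatases in the middle and the transcription factors at the bottom. Between neighbours in this order, Spp1 exceeded Ibsp in 10 of 10 mice, Ibsp exceeded Alpl in 10 of 10 and Phospho1 exceeded Sp7 in 10 of 10 (exact sign-flip test over mice, two-sided, p = 0.00195 each, the smallest it allows). The neighbours and their direction were taken from these same mice, and the sign-flip p-values were not adjusted, so they only describe the order. Other neighbours were separated in fewer mice. Bglap2 exceeded Spp1 in 9 of 10 and Sp7 exceeded Dlx5 in 8 of 10 (exact sign-flip p = 0.00781 each). Bglap exceeded Bglap2 in 8 of 10 by a mean ratio of only 1.06 (exact sign-flip p = 0.041). Alpl exceeded Phospho1 in 5 of 10 mice (exact sign-flip p = 0.766), and Dlx5 exceeded Runx2 in 7 of 10 (exact sign-flip p = 0.414). Dlx5 stood above Runx2 in all 5 wild-type mice and in 2 of 5 null mice.

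Osteocalcin was the most abundant product of the set. Bglap (ENSMUSG00000074483, chromosome 3, 88383501 to 88384464, minus strand, GRCm38) stood at 4829, 1633, 3048, 5138 and 3235 TPM in wild-type replicates 1 to 5. In Mir324-null replicates 1 to 5 it stood at 1020, 1708, 1996, 2023 and 1233 TPM. Wild-type replicate 2 lay among the null mice, and the other 4 wild-type mice lay above all 5 of them. The null mean was 44.6% of the wild-type mean (3577 ± 1430 against 1596 ± 452 TPM, SD, n = 5). The difference was -1.10 on the log2 scale, with a 95% interval of -1.76 to -0.45 (limma p = 0.00336, adjusted p 0.292, exact permutation p = 0.0317).

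Bglap2 (ENSMUSG00000074486, chromosome 3, 88377736 to 88378699, minus strand), its neighbour and near copy, gave the same picture. Its wild-type values were 4069, 1602, 2820, 4816 and 3052 TPM, and its null values 1096, 1686, 2025, 1699 and 1118 TPM. The difference was -1.05 (SE 0.276, limma p = 0.00267, adjusted p 0.287, exact permutation p = 0.0317). The 2 genes cannot be read as independent. Their main transcripts, of 440 bases for Bglap and 471 for Bglap2, were identical at 98.6% of aligned positions, and 80.5% of the 31-base words of the Bglap transcript also stood in that of Bglap2. The coding stretch where they differ most is shown with the differing bases in capitals, from bases 26 and 57 of the respective transcripts.
Bglap: ccAtctTtctgctcactctgctgA
Bglap2: ccCtctCtctgctcactctgctgG
Taken as 1 product, the sum of Bglap and Bglap2 had a mean of 6849 ± 2654 TPM in wild-type mice and of 3121 ± 844 in null mice (SD, n = 5). On the log2 scale the means differed by -1.08 (exact permutation p = 0.0317). Bglap3, a further copy in the same cluster that is not a member, averaged 168 and 78.3 TPM, a log2 difference of -1.07 (SE 0.272, limma adjusted p 0.284, exact permutation p = 0.0159).

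Spp1 (ENSMUSG00000029304, chromosome 5, 104435118 to 104441050, plus strand), which encodes osteopontin, stood at 2112, 2274, 1096, 2358 and 1318 TPM in wild-type mice. Its null values were 820, 1182, 1220, 745 and 824 TPM. Wild-type replicate 3 lay below null replicates 2 and 3, and the other wild-type mice lay above all null mice. The log2 difference was -0.90 with a 95% interval of -1.41 to -0.39 (limma p = 0.00235, adjusted p 0.284, exact permutation p = 0.0238). Over the alternatives run, the adjusted p of Spp1 ranged from 0.0928 to 0.580. Wild-type replicate 2, lowest of its genotype for osteocalcin, was second highest of all mice for Spp1, and there Bglap2 stood at 0.705 times Spp1, the lowest such ratio of the 10 mice.

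Ibsp (ENSMUSG00000029306, chromosome 5, 104299171 to 104311469, plus strand) lies in the same cluster of mineral-binding proteins. Its values were 354, 274, 201, 276 and 195 TPM in wild-type and 126, 222, 260, 176 and 168 TPM in null mice. The groups overlapped, with 3 null mice below the lowest wild-type mouse. The log2 difference was -0.46 with a 95% interval of -0.91 to -0.004 (limma p = 0.0484, adjusted p 0.427, exact permutation p = 0.0952). It kept an unadjusted limma p under 0.05 in 7 of 19 alternatives.

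Of the phosphatases, Alpl (ENSMUSG00000028766, chromosome 4, 137741733 to 137796384, minus strand) stood at 163, 130, 56.7, 111 and 79.8 TPM in wild-type mice. Its null values were 46.5, 71.6, 98.5, 71.0 and 51.6 TPM. The wild-type mice alone spread widely, and wild-type replicate 3 lay below 3 of the null mice. The log2 difference was -0.62 with a 95% interval of -1.23 to -0.01 (limma p = 0.0453, adjusted p 0.425, exact permutation p = 0.0952), and 6 of 19 alternatives kept the unadjusted p under 0.05.

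Phospho1 (ENSMUSG00000050860, chromosome 11, 95824499 to 95832140, plus strand), which carries the miR-324-3p seed match shown above, had the estimate nearest 0. It stood at 81.9, 109, 74.6, 106 and 83.7 TPM in wild-type and at 56.0, 67.8, 88.6, 108 and 83.9 TPM in null mice. Null replicate 4 was the second highest of all mice, and only null replicates 1 and 2 lay below the lowest wild-type mouse. The log2 difference was -0.19 with a 95% interval of -0.56 to 0.19 (limma p = 0.293, adjusted p 0.749, exact permutation p = 0.349). Leaving out 1 mouse moved it to between -0.30 (null replicate 4) and -0.07 (null replicate 1), and Runx2 was the nearer to 0 without wild-type replicate 1 or null replicate 4 or 5. Phospho1 lies within the annotated span of Zfp652 on the same strand and overlaps Abi3 on the other strand, and whether the quantification used strand was not given in the sources used here.

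The 3 transcription factors were the least abundant members. Sp7 (ENSMUSG00000060284, chromosome 15, 102356606 to 102367182, minus strand) stood at 37.2, 22.2, 15.9, 26.5 and 16.3 TPM in wild-type and at 9.8, 17.9, 24.5, 13.3 and 11.7 TPM in null mice. Null replicate 3 lay above 3 of the wild-type mice, and the log2 difference was -0.58 (95% interval -1.17 to 0.004, limma p = 0.0515, adjusted p 0.436, exact permutation p = 0.111). Dlx5 (ENSMUSG00000029755, chromosome 6, 6877805 to 6882085, minus strand) stood at 30.8, 23.0, 11.7, 20.0 and 14.7 TPM in wild-type mice. Its null values were 8.4, 15.8, 17.4, 8.5 and 12.0 TPM. Only wild-type replicates 3 and 5 lay within the range of the null mice, and the log2 difference was -0.63 (95% interval -1.21 to -0.05, limma p = 0.0352, adjusted p 0.395, exact permutation p = 0.0873).

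Runx2 (ENSMUSG00000039153, chromosome 17, 44495987 to 44814797, minus strand) carries the miR-324-5p seed match shown above. Its wild-type values were 19.8, 15.9, 10.5, 18.7 and 12.6 TPM, and its null values 13.5, 16, 12.8, 13.5 and 8.2 TPM. Only wild-type replicates 1 and 4 lay above all null mice. The log2 difference was -0.25 with a 95% interval of -0.68 to 0.18 (limma p = 0.229, adjusted p 0.690, exact permutation p = 0.317). It ranged from -0.37, with wild-type replicate 3 left out, to -0.11, with null replicate 5 left out. Runx2 overlaps Supt3, which is transcribed from the other strand.

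**Figure D2:**
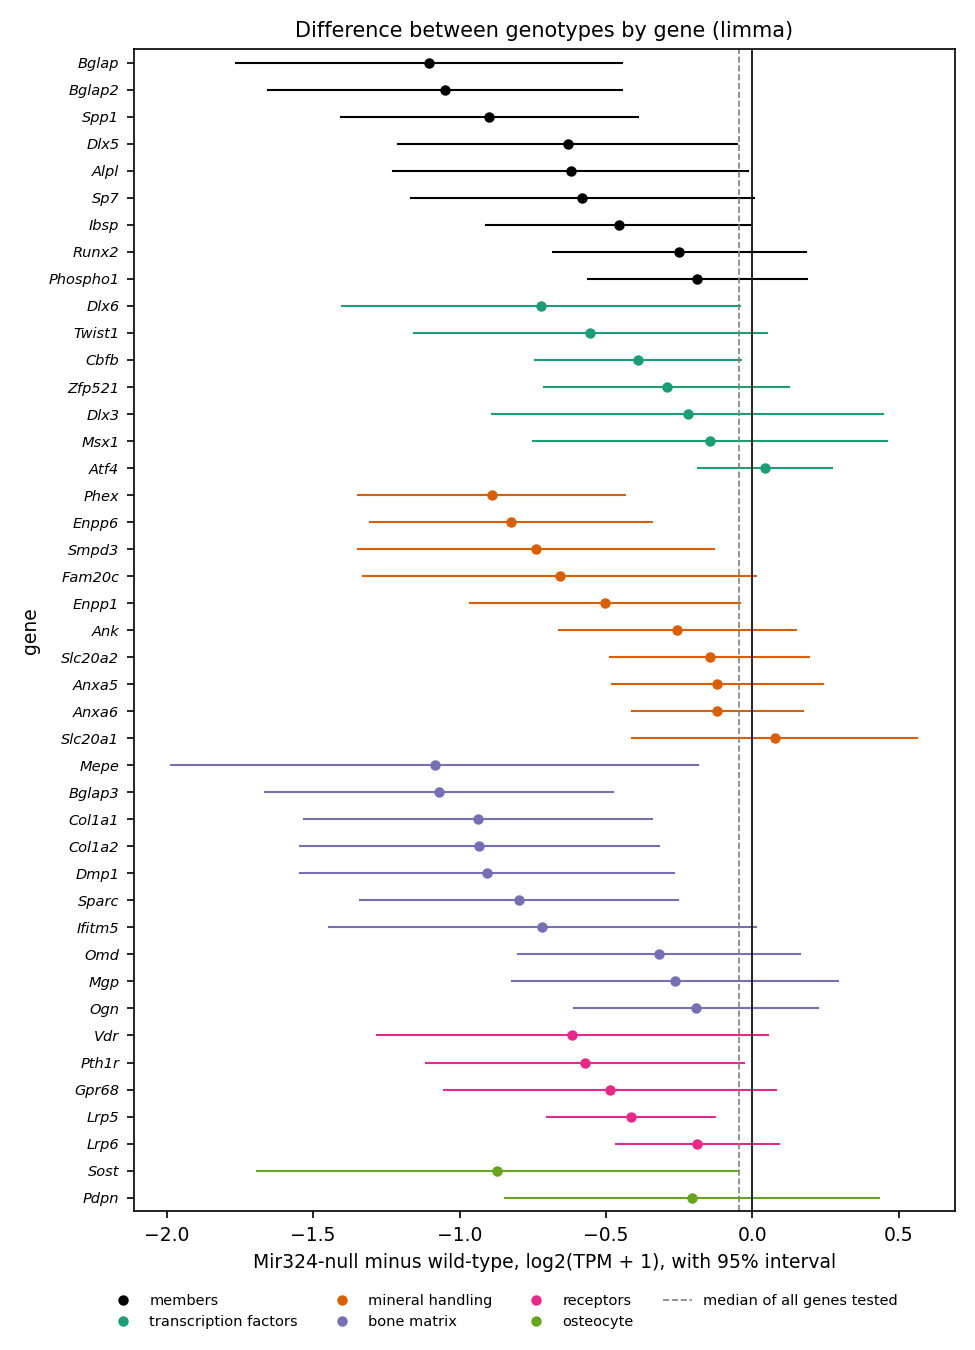
Log2 difference between genotypes with its 95% interval from limma for the 9 members and 34 other bone formation genes, ordered within each list. The dashed line marks the median of all genes tested, -0.045, and all intervals belong to adjusted p-values of 0.278 or more.

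Whether the members differed from each other was examined by their ratios within a library. Apart from the 1 TPM added to each value, these ratios do not depend on how libraries are scaled. This comparison was chosen after the values had been seen. Of the 36 pairs of members, 6 had an unadjusted exact permutation p under 0.05 and 0 an adjusted p under 0.05 (smallest adjusted p 0.238). These were the ratios of Bglap, Bglap2 and Spp1 to Runx2, of Bglap and Spp1 to Phospho1, and of Ibsp to Spp1. Spp1 against Runx2 gave the smallest p, with a mean log2 ratio of 6.76 ± 0.22 in wild-type and 6.11 ± 0.37 in null mice (SD, n = 5, exact permutation p = 0.00794, adjusted 0.238). Bglap against Phospho1 gave 5.19 ± 0.76 and 4.27 ± 0.30 (SD, n = 5, exact permutation p = 0.0397, adjusted 0.238). The larger differences of the matrix proteins than of Runx2 or Phospho1 were thus not established.

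Each member was also set against Col1a1, the main collagen of bone, in the same library. Col1a1 itself had a log2 difference of -0.94 (SE 0.272, limma adjusted p 0.308, exact permutation p = 0.0238). Of 20 ratios tested, those of the 9 members and of the osteocalcin sum to Col1a1 and to Col2a1, 0 had an adjusted p under 0.05 and 2 an unadjusted exact permutation p under 0.05. The log2 ratio of osteocalcin (the sum) to Col1a1 was 2.11 ± 0.37 in wild-type and 1.97 ± 0.22 in null mice (SD, n = 5, exact permutation p = 0.492). Spp1 to Col1a1 gave 0.24 ± 0.46 and 0.28 ± 0.53 (SD, n = 5, exact permutation p = 0.905). Those with an unadjusted p under 0.05 were the ratios of Phospho1, at -4.03 ± 0.44 and -3.28 ± 0.48 (n = 5, SD, adjusted 0.363 from an exact permutation p of 0.0317), and of Runx2, at -6.52 ± 0.27 and -5.84 ± 0.54 (n = 5, SD, adjusted 0.363 from an exact permutation p of 0.0397). Both mean ratios were higher in null mice, although Phospho1 and Runx2 themselves differed by -0.19 and -0.25, less than Col1a1 did. Against the cartilage collagen Col2a1, Sp7 gave the tightest ratio, -1.92 ± 0.18 in wild-type and -1.84 ± 0.12 in null mice (SD, n = 5, exact permutation p = 0.468).

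**Figure D3:**
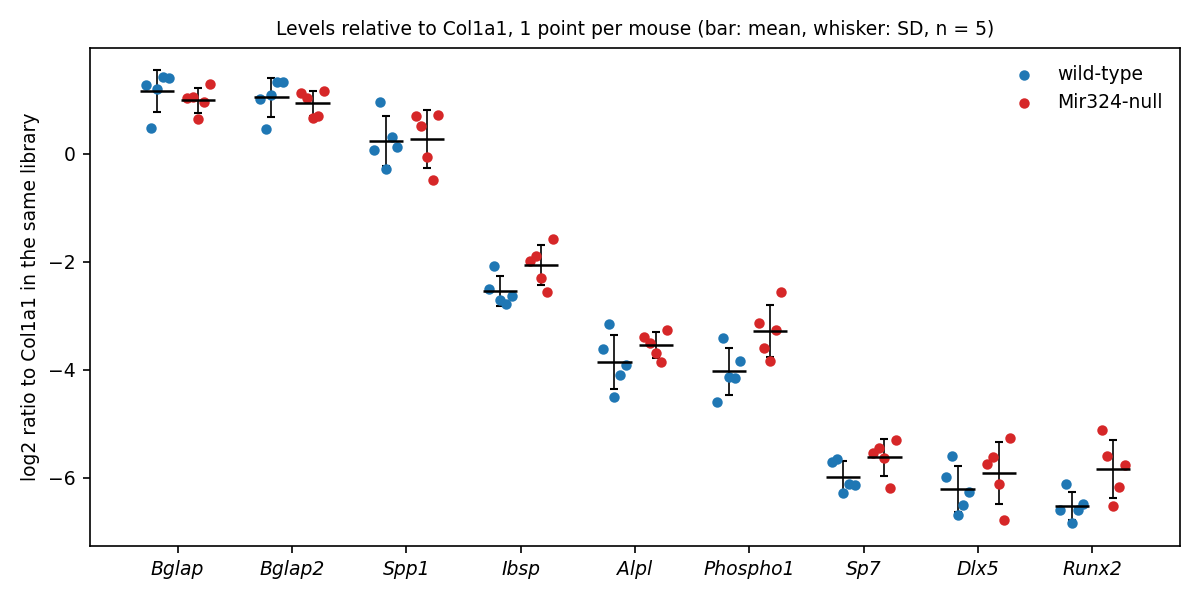
Log2 ratio of each member to Col1a1 in the same library, with 1 point per mouse, a bar at the mean and a whisker of 1 SD (n = 5). The null points of Bglap and Bglap2 lie within the wild-type range and those of Spp1 overlap it in part. The mean ratios of Phospho1 and Runx2 are higher in null mice by 0.75 and 0.69 (exact permutation test, adjusted p 0.363 each), where Col1a1 itself differs by -0.94.

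The mice differed in the members within each genotype too. The SD within a genotype on the log2 scale ran from 0.30 for Phospho1 to 0.56 for Bglap, against a median of 0.24 over all genes tested. Wild-type replicate 1 had the highest value of all mice for 5 members and wild-type replicate 4 for 3, while wild-type replicate 2 was highest for Phospho1. Mir324-null replicate 1 was the lowest for 7 members. Null replicate 3 lay highest of its genotype in the mean over members, at 0.19 SD above the mean of all mice, and above wild-type replicates 3 (-0.32) and 5 (0.04).

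**Figure D4:**
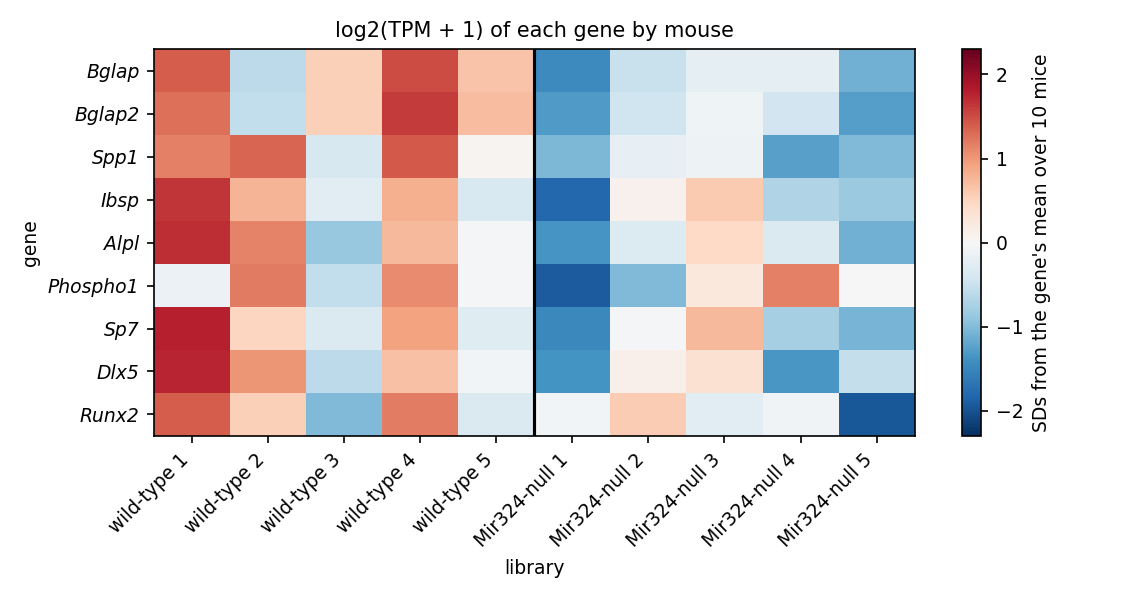
Each member's log2(TPM + 1) in each mouse, as SDs from that gene's mean over the 10 mice, with wild-type left and Mir324-null right of the line. Wild-type replicates 1 and 4 are high and null replicate 1 is low for nearly all members, and the Phospho1 row departs from the others.

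Members varied together over the 10 mice, as a description of libraries that share one total. The median Pearson correlation over the 36 pairs was 0.69, with a range of 0.20 to 0.99, and 0.52 after the genotype means were removed. The highest value belonged to the Bglap copies. Phospho1 had the lowest median with the other members, 0.40, and without it the pairs ranged from 0.52 to 0.99.

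The gene most like each member was found by its Pearson correlation over the 10 mice among all non-members tested, and no p is given because these genes were selected for it. For Sp7 it was Efs (r = 0.991, Spearman's rho 0.988), for Ibsp Slc25a4 (r = 0.990, rho 0.988) and for Spp1 Ube2e2 (r = 0.979, rho 0.964). For Alpl it was Bcar1 (r = 0.976, rho 0.964), for Bglap2 its copy Bglap3 (r = 0.975, rho 0.939) and for Dlx5 Tspan4 (r = 0.972, rho 0.976). For Bglap it was Pnkd (r = 0.958, rho 0.952), for Runx2 Gtpbp10 (r = 0.956, rho 0.867) and for Phospho1 Bmper (r = 0.893, rho 0.855). The pattern averaged over the 9 members was matched best by Pls3 (r = 0.991, rho 1.0), Rcn1 (r = 0.984, rho 0.964), Gja1 (r = 0.982, rho 0.988), Vkorc1 (r = 0.980, rho 0.952) and Ostc (r = 0.976, rho 0.988). Gja1, the gap junction protein of osteoblasts and osteocytes, had means of 93.1 TPM in the wild-type and 52.9 in the null group. Vkorc1, which recycles the vitamin K needed to carboxylate osteocalcin, had means of 77 and 53.0 TPM.

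Markers of other cells were counted in the same way, to be read beside 7.3% of all genes tested that were lower and 4.28% that were higher. Of 8 osteoclast markers 7 were tested, and 7 of 7 were lower in null mice at an unadjusted limma p under 0.05, with summed levels of 1438 to 3252 TPM in the wild-type group and 944 to 1940 in the null group, and Calcr was under 1 TPM on average. Of 7 chondrocyte markers tested 5 were lower at that threshold (sums of 403 to 1142 and 320.5 to 644 TPM), as were 3 of 5 hypertrophic markers (283 to 789 and 182 to 303 TPM) and 4 of 5 adipocyte markers (322 to 543 and 233 to 397 TPM). Of 7 erythroid markers tested 4 were higher, with sums of 112600 to 198800 and 159200 to 263600 TPM. Neutrophil, macrophage, marrow stroma, fibroblast and skeletal muscle lists had 0 at that threshold. Only 2 of 5 skeletal muscle markers were tested, Acta1, Ckm and Myh4 being under 1 TPM on average. Null replicates 2 and 3 were the highest for Ckm (5.93 and 1.66 TPM) and Tnnt3 (11.2 and 6.24 TPM), beside wild-type values of at most 0.228 and 2.28 TPM. Mylpf was highest in null replicate 2 (27.5 TPM) but lowest in null replicate 3 (10.6 TPM). In the same fit, 0 of the markers of all lists had an adjusted p under 0.05. After rescaling without the haemoglobin genes, 6 of 7 osteoclast, 3 of 7 chondrocyte, 2 of 5 hypertrophic and 3 of 5 adipocyte markers were lower, beside 4.2% of all genes. The medians of these 4 lists were below 0 under every scaling run. Erythroid markers higher at that threshold numbered 2 of 7 with median ratios, 3 of 7 with equalized quantiles and 3 of the 3 left without the haemoglobin genes. In the last of these, 1 of 2 skeletal muscle markers was higher too. The shares of all genes that were higher were 6.32%, 6.38% and 8.78% in turn. The part of these cell types in the differences of the members was not tested.

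Correlations of the 9 members with 4 reference genes, chosen after the data had been seen, were computed over the 10 mice as a description of libraries that share one total (36 relations, permutation test, Benjamini-Hochberg adjustment over the 36). The osteoclast gene Acp5 correlated with Ibsp at r = 0.94 (permutation p = 5e-05, adjusted 0.0009, rho 0.94 with permutation p = 0.00024, r = 0.94 without the 2 mice farthest in Acp5). With Spp1 it gave r = 0.92 (permutation p = 0.00052, adjusted 0.00234, rho 0.87 with permutation p = 0.00212, r = 0.89 without the 2 farthest). Close to these were Sp7 (r = 0.91), Dlx5 (r = 0.91) and Alpl (r = 0.88), with adjusted permutation p-values of 0.00168, 0.00185 and 0.00381. Lower values came with Bglap2 (r = 0.65, adjusted 0.0591) and Runx2 (r = 0.58, adjusted 0.0856, permutation test). With Bglap it gave r = 0.62 (permutation p = 0.0576, adjusted 0.0669, rho 0.44 with permutation p = 0.204, r = 0.77 without the 2 farthest). Col1a1 correlated with Bglap at r = 0.92 (permutation p = 0.00027, adjusted 0.00168, rho 0.88 with permutation p = 0.00161, r = 0.88 without the 2 farthest). Col2a1 correlated with Sp7 at r = 0.97, the highest of the 36 (permutation p = 3e-05, adjusted 0.0009, rho 0.96 with permutation p = 4e-05, r = 0.93 without the 2 farthest). With Ibsp it gave r = 0.95 (permutation p = 0.00011, adjusted 0.00132, rho 0.90 with permutation p = 0.0008, r = 0.85 without the 2 farthest). Phospho1 had no relation that passed with any of the 4. With the red cell gene Slc4a1 it gave r = -0.10 (permutation p = 0.775, adjusted 0.775, rho 0.09 with permutation p = 0.810, r = -0.05 without the 2 farthest), and the other 8 members gave r between -0.82 and -0.66. Without the 2 mice farthest in Slc4a1, those 8 values lay between -0.80 (Spp1) and -0.34, so that most of them rested on those mice. After rescaling without the haemoglobin genes, the Phospho1 relation was 0.16 and that of Spp1 -0.72. Each genotype has 5 mice, too few for a correlation within it. With the genotype means removed, Acp5 gave 0.92 with Ibsp, 0.88 with Sp7, 0.86 with Dlx5, 0.84 with Spp1, 0.82 with Alpl and 0.23 with Bglap. Col1a1 gave 0.82 with Bglap, and Col2a1 gave 0.96 with Sp7 and 0.92 with Ibsp. Slc4a1 then gave values between -0.70 (Dlx5) and -0.30 (Bglap2) with those 8 members, with Bglap at -0.31 and Spp1 at -0.53, and 0.21 with Phospho1.

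Other genes of bone formation were grouped by role in lists of 38 genes in all, of which 35 were tested, Msx2, Dspp and Fgf23 being under 1 TPM. Of the 35, 33 had estimates below 0, 16 were lower at an unadjusted limma p under 0.05 (the share of all genes tested was 7.3%), 0 were higher and 0 had an adjusted p under 0.05. Leaving out wild-type replicate 1, or Mir324-null replicate 5, brought the count of 16 to 9. The median log2 difference of the 35 was -0.50. Groups did not overlap in 3 of the 35, all null mice being lower (share of all genes tested 1.06%), and these were Enpp6, Phex and Lrp5.

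Among transcription factors and partners, 3 of 8 tested were lower at an unadjusted p under 0.05. Among them, Cbfb, the partner of Runx2, averaged 62.4 ± 9.60 and 47.8 ± 10.9 TPM (SD, n = 5, log2 difference -0.39, limma adjusted p 0.388), and Dlx6, the neighbour of Dlx5, differed by -0.72 (limma adjusted p 0.411). Atf4, which drives amino acid supply for matrix synthesis, stood at 149 ± 20.8 and 153 ± 10.2 TPM (SD, n = 5), a difference of 0.04 with a 95% interval of -0.19 to 0.27.

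For mineral and phosphate handling, 4 of 10 tested were lower at that threshold. Phex, an endopeptidase of osteocytes that acts on phosphate balance, averaged 26.9 ± 9.24 and 13.8 ± 3.13 TPM (SD, n = 5), with a log2 difference of -0.89 (limma p = 0.00115, adjusted p 0.278) and an exact permutation p of 0.00794, the smallest that 5 against 5 mice allow. Enpp6 differed by -0.82 (limma adjusted p 0.290), Smpd3, a sphingomyelinase needed for mineralization, by -0.74 (limma adjusted p 0.355) and Enpp1, which makes pyrophosphate, by -0.50 (limma adjusted p 0.394). The pyrophosphate exporter Ank and the phosphate carriers Slc20a1 and Slc20a2 had intervals that spanned 0, with estimates of -0.26, 0.08 and -0.15.

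In the bone matrix list, 6 of 10 tested were lower at that threshold, with Bglap3 among them, and all 10 estimates were below 0. Col1a2 differed by -0.93 and Sparc, the collagen-binding osteonectin, by -0.80 (limma adjusted p 0.312 and 0.319). Dmp1 and Mepe, mineral regulators of osteocytes that sit beside Ibsp and Spp1 on chromosome 5, differed by -0.91 and -1.08 (limma adjusted p 0.325 and 0.358). Of the receptors 2 of 5 were lower, namely Lrp5 (-0.42, limma adjusted p 0.319), a Wnt co-receptor, and Pth1r (-0.57, limma adjusted p 0.414), the parathyroid hormone receptor. Of the osteocyte list 4 of 5 tested were lower, of which Phex, Dmp1 and Mepe are already counted above. The other was Sost, the Wnt antagonist sclerostin, at 215 ± 113 and 118 ± 57.1 TPM (SD, n = 5, -0.87, limma adjusted p 0.411). Each list holds genes that earlier results of these data had already shown to be lower, so these counts are not independent evidence.

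Single transcripts were compared where a member had more than 1 at a mean of at least 1 TPM. Of 19 such transcripts, Bglap3 included, 0 differed in their share of the gene between genotypes after adjustment and 2 had an unadjusted exact permutation p under 0.05. Both belonged to Dlx5. Their share differences, -11.2 and 11.1 percentage points, mirror each other as parts of 1 gene, so they are not separate results. The same dependence holds between transcripts of the other genes. ENSMUST00000142635 made up 15.6% ± 6.64 of Dlx5 in wild-type and 4.43% ± 6.08 in null mice (SD, n = 5, exact permutation p = 0.0397, adjusted 0.264), and it was listed at 0 in null replicates 2, 3 and 4. The most abundant Spp1 transcript, ENSMUST00000112748, held 60.6% ± 3.82 and 66.4% ± 4.82 of Spp1 (SD, n = 5, exact permutation p = 0.0794, adjusted 0.302). The most abundant Runx2 transcript, ENSMUST00000113571, held 52.3% ± 6.78 and 48.3% ± 7.66 of Runx2 (SD, n = 5, exact permutation p = 0.397). ENSMUST00000113572, the only Runx2 transcript searched for a seed match, held 28.7% ± 9.48 and 28.9% ± 7.74 (SD, n = 5, exact permutation p = 0.968). Whether other Runx2 transcripts hold the match was not examined.

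Promoter sequence is given for Bglap and Spp1, the most abundant members with a window here, since Runx2 binds the core ACCACA at several bone genes. RefSeq windows from 250 bases before to 50 after a start site (GRCm38.p6) were held for 6 of the 9 members, as 8 windows, and not for Bglap2, Sp7 and Dlx5. ACCACA, or TGTGGT on the other strand, was in 3 of the 8 windows, those of Bglap, Spp1 and Runx2, beside 16.8% of 32851 windows of the same length. The windows of Bglap (chr3:88384417-88384716, minus strand) and Spp1 (chr5:104434861-104435160, plus strand) follow, with the core in capitals, at bases -132 to -127 and -128 to -123 from the start site.
Bglap: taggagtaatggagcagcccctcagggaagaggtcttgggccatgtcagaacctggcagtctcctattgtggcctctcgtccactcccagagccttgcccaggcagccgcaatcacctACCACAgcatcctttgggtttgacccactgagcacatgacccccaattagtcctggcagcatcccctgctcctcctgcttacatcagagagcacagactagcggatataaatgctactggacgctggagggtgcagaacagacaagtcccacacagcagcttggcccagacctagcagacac
Spp1: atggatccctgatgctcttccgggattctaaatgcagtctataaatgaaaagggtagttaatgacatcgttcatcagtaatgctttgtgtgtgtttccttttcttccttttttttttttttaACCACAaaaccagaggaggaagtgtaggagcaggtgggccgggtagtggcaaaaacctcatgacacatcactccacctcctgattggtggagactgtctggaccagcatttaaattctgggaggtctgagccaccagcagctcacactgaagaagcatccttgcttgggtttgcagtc
Runx2 itself held the core 3 times, at -80 to -75, 24 to 29 and 32 to 37 (window at chr17:44814578-44814877, minus strand). The GC box GGGCGG, or CCGCCC on the other strand, was in 2 windows, the upstream one of Alpl and that of Phospho1, beside 35.7% of all windows, and the homeodomain core TAATTA was in 1, the downstream window of Spp1, beside 5.29%. These are matches of letters only.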

How the data were processed

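The authors deposited 1 table of TPM values for 116912 mouse Ensembl transcripts in 10 libraries, 1 per mouse. Per the submitters' processing notes, kallisto and DESeq2 were used and the build was GRCh38, a human one, whereas the table lists mouse transcripts. The index, versions and strand setting were not given in the sources used here. Each column sums to 1000000, so read depth is unknown and no counting interval was computed, and genes that take a large share lower all others. Transcripts were matched without version to GENCODE M21 (GRCm38), 115494 matched, and TPM were summed per gene. The unmatched 1418 held 0.224% to 0.296% of a library. Genes reaching 1 TPM on average over the 10 libraries, 13846 in all, were tested as log2(TPM + 1) with limma 3.58.1 in R 4.3.3 (trend, no covariate, two-sided, Benjamini-Hochberg over all genes, threshold 0.05), checked on simulated data. Fold changes on this scale understate those of low genes. Single values were tested with a two-sided exact permutation test over 252 splits, whose smallest p is 0.00794. Correlations used 100000 permutations. Python 3.11.15, numpy 2.4.6, scipy 1.17.1 and biopython 1.88 were used. Named genes are the members, their copy Bglap3, the lists by role and the genes most like each member. Members and lists were chosen with earlier results of these data known. The alternatives were other scalings, pseudocounts of 0.1 and 5, other filters, no trend, a replicate block and each mouse left out. Same-numbered mice were not paired. The values of 1 listed gene are not reported here.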

Additional observations from a re-analysis of the deposited data

Results flagged for a closer look

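Of 90 groups of 5 mice looked at (the members, the other bone formation genes and the osteocalcin sum, in each genotype), 3 held a mouse farther from the rest than Dixon's 95% critical value of 0.710 allows, where chance flags about 1 group in 20. None was a member. Enpp6 stood at 22.3 TPM in wild-type replicate 1, Slc20a1 at 112 TPM in wild-type replicate 1, and Omd at 15.7 TPM in Mir324-null replicate 1.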

How the results depend on the processing

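Over 19 alternatives, the differences of all 9 members stayed below 0 and none had an adjusted limma p under 0.05. The number of members lower at an unadjusted p under 0.05 was 3 after rescaling without the haemoglobin genes, 3 with a replicate block (same-numbered mice share only a number, the correlations of their deviations being -0.144 to 0.056), and between 3 and 7 when 1 mouse was left out. It was 4 with no trend and 4 with no filter on the mean (Bglap, Bglap2, Spp1 and Dlx5). With either pseudocount, or a minimum mean of 5 TPM, it was 6. The number of other bone formation genes at that threshold, counted in alternatives chosen after the data had been seen, lay between 9 and 21 when 1 mouse was left out, and was 15 with the replicate block. Genes with an adjusted p under 0.05 numbered between 0 and 1 when 1 mouse was left out, and the 1 was never a member. The median difference of the members ranged from -0.79, with wild-type replicate 3 left out, to -0.45, with wild-type replicate 1 left out. Ratios to Col1a1 and Col2a1 with an adjusted p under 0.05 numbered 0 in all 12 alternatives. Read depth is unknown from TPM, so no counting error can be given for low values such as those of the Dlx5 transcripts.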
